A study of Bos taurus with 86 samples.

Results

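Single bovine embryos labelled AI, read here as artificial insemination, were set against a common reference RNA on 2-colour cDNA arrays. All 14 embryos whose titles place them in the AI group were taken, with 28 of the 86 arrays and 14 of the 43 embryos of the series, and no measured value was used to choose them. Every AI embryo went onto 2 arrays in opposite dye order, and the other groups, IVD (14 embryos) and IVF (15 embryos), were treated in the same way. IVF was read as in vitro fertilization, and the labels do not spell out IVD, which serves here as a group name only. The breed, the dams, the day of collection, the developmental stage and the tissues behind the reference RNA are not stated in the labels. Nothing in the labels says that the embryos came from separate cows. The tests on embryo means therefore take the spread between these embryos as their error, which may differ from that between cows. The test of variation between embryos takes the disagreement between an embryo's 2 arrays instead. All embryo RNA went through a further round of linear amplification that the reference RNA did not, per the labels' protocols, so that amplification and the difference between embryo and reference cannot be told apart. A few AI embryos carry an H before their number (H1, H3 and H5), with no meaning stated, and this was treated as a possible batch.

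The values are log2 ratios of embryo over reference, where 0 means the same share of signal as in the reference after centring and 1 means 2-fold above it. Which dye stands in the numerator of the deposited ratio is not stated in the labels. Cy5 over Cy3 was taken as likely, because the trophectoderm, junction and keratin genes below then lie above the reference and the mesenchyme and blood genes below it, so those lists cannot serve as independent evidence of direction. With the opposite direction every sign would turn. The paired arrays of an AI embryo correlated at -0.91 to -0.82 over rows before turning, and arrays of different AI embryos with the same dye order correlated at 0.72 to 0.86 (embryo in Cy3) and 0.73 to 0.85 (embryo in Cy5). Between 10137 and 14119 rows were measured on an AI array (median 11834). A ratio to a reference gives no level within the embryo, and fewer cells of a type cannot be told apart from less RNA per cell.

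As background, the blastocyst is a hollow embryo whose outer epithelium, the trophectoderm, pumps fluid inward behind tight junctions and later forms the fetal part of the placenta, while the inner cells give rise to the fetus and the yolk sac. In cattle the trophectoderm secretes interferon tau, the signal by which the cow recognises pregnancy, and a family of pregnancy-associated glycoproteins. Its identity rests on transcription factors such as GATA3, TFAP2C and the TEAD partners. Of the defining trophectoderm markers, 9 of 12 were measured (GATA2, GATA3, TFAP2A, TFAP2C, KRT8, KRT18, KRT19, DAB2 and SSLP1) and 9 were higher than in the reference, against 36.1% of all features, while CDX2, PAG2 and IFNT were not among the features tested. The direction of the ratios was itself taken from genes of this kind, so this count is no evidence of its own, and the clones of GATA2 did not agree. Of the epiblast markers only SALL4 was tested, with a mean log2 ratio of -0.08, and none of the defining primitive endoderm or maternal oocyte markers was tested.

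AI embryos differed from the reference over most of the measured transcriptome. Of 6495 features tested (3508 named genes and 2987 unnamed rows), 2343 were higher in AI embryos (36.1%) and 2668 were lower (41.1%) in limma's moderated test of the mean against 0, at a Benjamini-Hochberg adjusted p under 0.05. Because so many features passed, a second test asked for a difference beyond 2-fold (limma's treat, minimum log2 ratio 1). It called 590 features higher (9.08%) and 703 lower (10.8%), among them 334 and 369 named genes. The mean ratio had a median of -0.06 over all features with centred arrays and of -0.32 as deposited. With the deposited values the higher features were 32.1% of all those called, against 46.8% after centring, and 28.3% against 45.6% of those beyond 2-fold, so the split between higher and lower depends on the centre.

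ENPEP, the cell-surface aminopeptidase that trims angiotensin, had log2 ratios of 4.38 to 6.00 with a median of 5.21, and averaged 5.19 ± 0.38 (SD, n = 14), which is 36.5-fold the reference (adjusted p beyond 2-fold = 4.32e-16). PTGS2, the inducible cyclooxygenase that starts prostaglandin synthesis, ran from 4.44 to 6.04 with a median of 5.08 and a mean of 5.07 ± 0.38 (n = 14, 33.5-fold). For neither gene was any AI embryo below 4.38. FOLR1, the folate receptor, averaged 4.51 ± 0.50 over a range of 3.85 to 5.56. AQP3, a channel for water and glycerol, averaged 4.46 ± 0.25 over a range of 4.09 to 5.06, and its 3 clones gave means of 4.37 to 4.52. CDH1, the adhesion protein E-cadherin that holds epithelial cells together, was the least variable of these at 4.31 ± 0.18, from 4.08 to 4.63. The tight junction proteins CLDN6 (4.27 ± 0.22) and OCLN (3.79 ± 0.27) and the junctional adhesion protein MPZL2 (3.69 ± 0.27) were above 0 in all 14 embryos, the lowest single value being 3.21 for MPZL2.

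The others of the 15 highest named genes were of mixed function, and ZNF350, TIMM23 and VGLL1 stood above OCLN and MPZL2. VGLL1, a cofactor of the TEAD transcription factors, averaged 4.09 ± 0.35 (n = 13). TIMM23, a channel of the mitochondrial inner membrane for imported proteins, stood at 4.23 ± 0.18, and ZNF350, a zinc finger protein, at 4.27 ± 0.19. SORD, which oxidises sorbitol to fructose, was at 3.92 ± 0.33. FADD, the adaptor of death receptors, averaged 3.77 ± 0.63 with the widest range of the 15, from 2.63 to 4.86, and its mean was 4.44 from the Cy3-labelled embryo samples and 3.09 from the Cy5-labelled ones. CCDC68 (3.49 ± 0.32) and HMGXB4 (3.44 ± 0.32, n = 12) completed the 15. All 15 were above 0 in every measured embryo, as the choice of genes required.

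**Figure D1:**
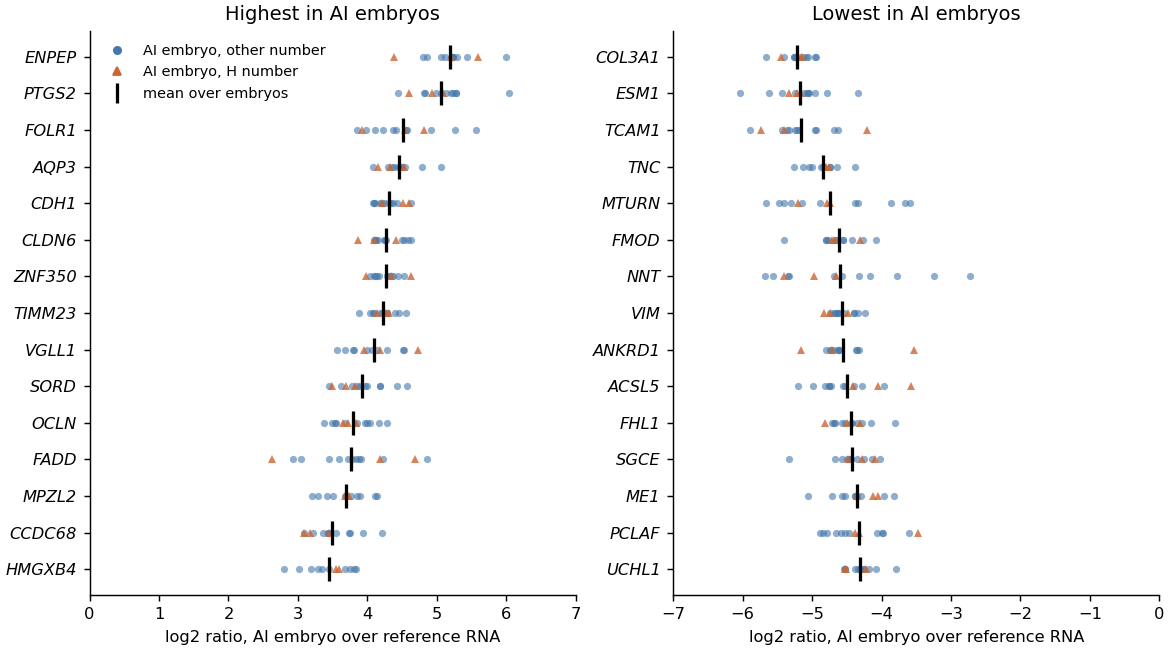
The 15 highest and the 15 lowest named genes in AI embryos, with the log2 ratio of embryo over reference RNA on the horizontal axes. Each point is 1 embryo (circles for other numbers, triangles for H numbers) and the bar is the mean. The points of CDH1 span 4.08 to 4.63 and those of NNT span -5.69 to -2.73.

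COL3A1, a fibrillar collagen of stroma, had log2 ratios of -5.66 to -4.95 with a median of -5.19, and a mean of -5.21 ± 0.19 (SD, n = 14, 37.1-fold below the reference, adjusted p beyond 2-fold = 4.1e-18). The matrix proteins TNC and FMOD averaged -4.85 ± 0.23 (n = 13) and -4.62 ± 0.31. VIM, the intermediate filament of mesenchymal cells, averaged -4.57 ± 0.17, and its 4 rows agreed (means -4.63 to -4.49). ESM1, a proteoglycan of endothelium, was at -5.18 ± 0.39 over a range of -6.03 to -4.34. The highest single value among COL3A1, TNC, FMOD, VIM and ESM1 was -4.08, for FMOD.

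The rest of the 15 lowest genes were of mixed function. TCAM1, a testicular adhesion molecule, was at -5.16 ± 0.45. ANKRD1 (-4.56 ± 0.38), FHL1 (-4.45 ± 0.26) and SGCE (-4.43 ± 0.32) are known from muscle, and the 2 clones of FHL1 differed (rows at -5.46 to -3.64). UCHL1, a ubiquitin hydrolase abundant in neurons, averaged -4.32 ± 0.21. Metabolic enzymes were also present: ACSL5, which activates fatty acids, at -4.50 ± 0.43, and ME1, the cytosolic malic enzyme, at -4.36 ± 0.33. PCLAF, which binds the replication clamp, was at -4.33 ± 0.45. MTURN stood at -4.75 ± 0.68. NNT, the mitochondrial transhydrogenase that makes NADPH, averaged -4.60 ± 0.89 and had the widest range of the 15, from -5.69 to -2.73, with embryo 16 highest.

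Gene lists were described by their counts beside the shares for all features given above. Trophectoderm genes lay high: 18 of 24 measured members were higher, 4 were lower and 2 did not pass, with a list median of 1.44 against -0.06 for all features, and 12 were higher beyond 2-fold. Besides PTGS2, FOLR1 and VGLL1, the homeobox gene MSX2 averaged 3.31 ± 0.35 (range 2.81 to 3.90). The transcription factors TFAP2C and GATA3 had means of 3.04 and 2.44, and DAB2, an endocytic adaptor, of 2.92. FGFR2, a receptor of fibroblast growth factors, went the other way at -2.63 and was the only member lower beyond 2-fold, and CITED2, TEAD4 and CYP11A1 were the other lower members (-0.53, -0.26 and -0.19). The call of CYP11A1 was lost under another array centre (adjusted p = 0.0654), with Cy5 alone (0.261) and without the H-numbered embryos (0.0591). GATA2 had a mean of 1.5, but its 3 clones did not agree: 2 rows were at 4.06 and 4.10 and the other 4 between 0.15 and 0.27.

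Proteins that the trophoblast secretes were higher in 8 of 9 measured members and lower in 0, with a median of 1.94, which was 1.23 with rows measured in every embryo, 2.51 with Cy3 alone and 1.37 with Cy5 alone. SSLP1, a secreted protein, ran from 1.52 to 4.5 with a median of 3.18 (mean 3.11 ± 0.93, n = 13, 8.63-fold). PAG12 and PAG11 had means of 2.48 and 1.94, PAG10 of 1.29 and PAG8 of 0.28. The PAG genes form a large family of near copies, so a cDNA clone may bind transcripts of several of them. TKDP1, a trophoblast Kunitz domain protein, ranged from 0.23 to 4.12 over 11 embryos (mean 2.32 ± 1.27). SPINT2, a protease inhibitor, was at 2.35 ± 0.38. All measured embryos were above the reference for SSLP1, PAG12, TKDP1 and SPINT2, and TKDP1 had the widest range of the 4.

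Of 17 measured junction and blastocoel genes 14 were higher and 1 was lower, and 11 were higher beyond 2-fold. Their median was 2.04, but 1.79 with the deposited values and 1.66 with a looser filter on missing values. EPCAM, EZR and DSC2, proteins of adhesion, of the apical cortex and of desmosomes, had means of 2.50, 2.42 and 2.18, and ATP1B3, a subunit of the sodium pump, of 2.04. CLDN1 was the lower member at -0.80 (adjusted p = 0.048), a call lost under another array centre (adjusted p = 0.0588), quantile normalization (0.0609), Cy3 arrays alone (0.307) and a looser filter on missing values (0.161). All 3 keratins were higher: KRT18 averaged 3.03 ± 0.27, KRT19 2.34 ± 0.45 and KRT8 1.93 ± 0.28, and the lowest single value was 1.39, for KRT8. KLF4, a factor of the pluripotency list that epithelia also express, stood at 1.82 ± 0.53.

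Of 15 blood and immune genes 14 were lower and 0 higher. Their median was -1.59, but -1.98 with the deposited values and -1.30 with a looser filter on missing values. LAPTM5 was at -3.83 ± 0.45, CCL2 at -3.66 ± 0.22 and BOLA-DRB3 at -3.57 ± 0.53, and C1QA at -0.04 did not pass. Of 23 matrix and mesenchyme genes 16 were lower and 4 higher (median -1.11, and -1.37 with the deposited values). The 4 higher ones were THY1 (0.87), FBLN1 (0.61), COL12A1 (0.27) and FBLN2 (0.22), and FN1 did not pass (0.15). Muscle genes were lower in 6 of 10 (median -0.52, but -0.26 without the H-numbered embryos, -0.22 with rows measured in every embryo and -0.29 with a looser filter on missing values). Cumulus and granulosa genes, which would mark maternal cells left on an embryo, were lower in 3 of 5, CYP11A1 among them, and higher in 1, which was PTGS2. HSD3B1 was at -1.58 and CYP19A1 at -0.42. The 2 oviduct and endometrium genes were both lower (SPP1 -2.75 and DYNLL1 -0.34), although the clones of SPP1 differed (rows at -4.29 to -1.58).

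**Figure D2:**
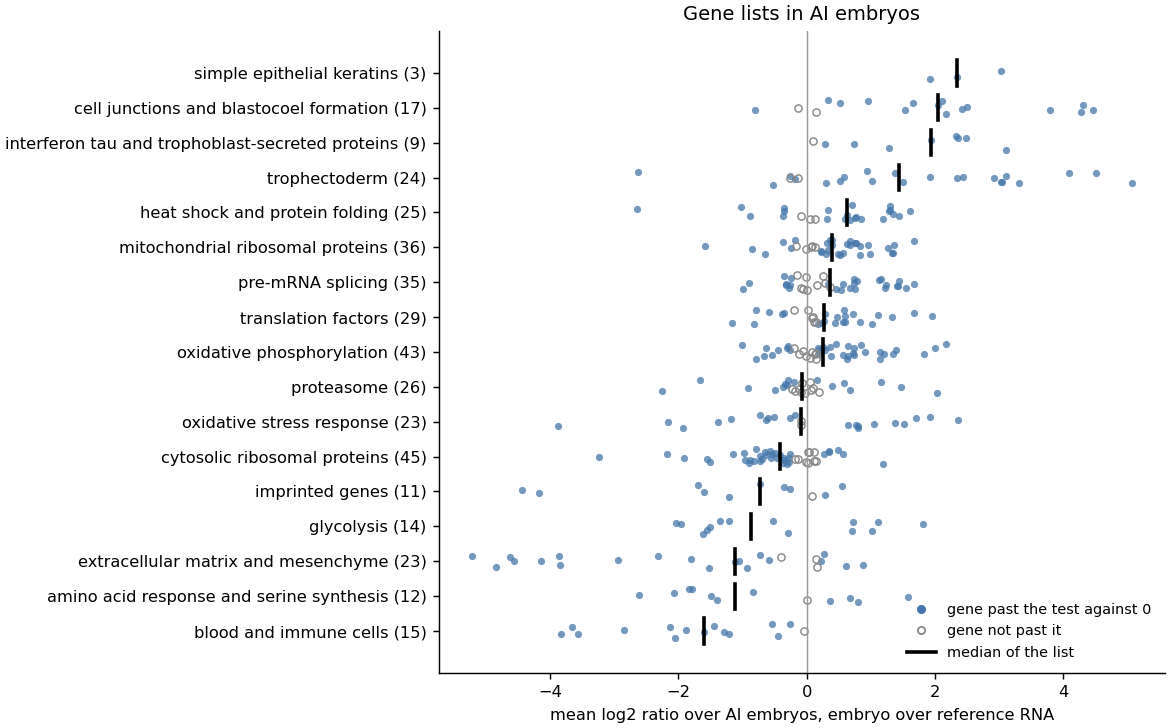
Selected gene lists in AI embryos, not all lists of the text. The horizontal axis is the mean log2 ratio of embryo over reference RNA over AI embryos, each point is 1 gene (filled where it passed the test against 0), black bars are list medians, and the number of measured genes stands in brackets. Keratins, junctions, trophoblast-secreted proteins and trophectoderm genes lie at the top, with medians of 2.34 to 1.44, and blood and immune genes at the bottom with -1.59.

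The cytosolic and the mitochondrial ribosomal proteins had medians of opposite sign. Cytosolic ribosomal proteins were lower in 30 of 45 and higher in 6 (median -0.42, and -0.68 with the deposited values), and RPS9 was lowest at -3.24 ± 0.27. Mitochondrial ribosomal proteins were higher in 25 of 36 and lower in 6 (median 0.40, and 0.14 with the deposited values), with MRPS22 at 1.67 ± 0.35 and MRPL28 as an exception at -1.59 ± 0.20. Subunits of oxidative phosphorylation were higher in 25 of 43 and lower in 9, with ATP5PB at 2.17 ± 0.25, but the list's median of 0.26 was 5.36e-05 with the deposited values. Glycolysis was lower in 9 of 14 (median -0.87, and -0.52 with rows measured in every embryo). GAPDH averaged -2.04 ± 0.32 and LDHA, the lactate dehydrogenase of fermenting cells, -1.95 ± 0.55, while the glucose transporter SLC2A3 was higher at 1.82 ± 0.34. Chaperones were higher in 16 of 25 (median 0.63, and 0.37 with the deposited values), led by HSPA9 at 1.61 ± 0.32, and HSPB8 was the lowest at -2.65 ± 0.54.

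Stress, chromatin and imprinted genes were mixed. Antioxidant genes were higher in 10 of 23 and lower in 11 (median -0.09, and -0.35 with the deposited values): GLRX averaged 2.35 ± 0.41, against -3.87 ± 0.25 for GPX8 and -2.16 ± 0.35 for SOD1. Genes of the amino acid response were lower in 7 of 12 (median -1.12), with DDIT3 at -2.07 ± 0.49 and the serine synthesis enzyme PSPH at -2.61 ± 1.03. DNMT3A, a de novo DNA methyltransferase, was the highest chromatin gene at 2.91 ± 0.59 (n = 10), and the chromatin list (12 higher and 7 lower of 24) had a median of 0.30 that became -0.03 with the deposited values. Of 11 imprinted genes 8 were lower and 2 higher (median -0.73). SGCE (-4.43 ± 0.32) and PLAGL1 (-4.18 ± 0.42) were far below the reference in every embryo. IGF2, the fetal growth factor, had a mean of -1.69, but its clones differed (rows at -3.14 to -0.44). H19 and DLK1 were the higher ones (0.55 and 0.28). CASP6, an executioner caspase, averaged 3.02 ± 0.21, while the apoptosis list as a whole had 6 higher and 6 lower of 12.

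DNA replication and cell cycle genes were higher in 6 of 17 and lower in 7 (median -0.16, and -0.42 with the deposited values), although CCNE1, the cyclin that drives entry into S phase, averaged 2.06 ± 0.67 (range 0.41 to 2.73) and CDC20, an activator of mitotic exit, 1.77 ± 0.41. Splicing genes were higher in 18 of 35 and lower in 8 (median 0.37, and 0.09 with the deposited values), with SRSF2, a splicing regulator, at 1.68 ± 0.24. Nucleolar genes were higher in 9 of 18 and lower in 5 (median 0.55, but 0.29 with the deposited values and 0.16 with a looser filter on missing values). They were led by GAR1, a protein of the particles that pseudouridylate ribosomal RNA, at 2.33 ± 0.43. Translation factors were higher in 17 of 29 and lower in 6 (median 0.27), with EIF5 at 1.95 ± 0.47, but the median was 0.02 with the deposited values. The proteasome was split, with 7 higher and 9 lower of 26 (median -0.08, and -0.33 with the deposited values). Its nuclear activator PSME4 was at 2.03 ± 0.35 and PSMB10, a catalytic subunit of the immunoproteasome, at -2.26 ± 0.26. Of 4 solute carriers 3 were higher and 0 lower, with the vitamin transporter SLC5A6 at 1.98 ± 0.50.

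Small lists give few values. CD59, which blocks the last step of complement, was at 1.55 ± 0.57, and C1S, a protease that starts the cascade, at -2.10 ± 1.09 over a range of -3.11 to 0.53, so that 1 of 3 measured complement genes was higher and 2 were lower. Sterol and fatty acid synthesis was higher in 2 of 7 and lower in 2, with a median of 0.14 that became -0.12 with the deposited values. ACLY, which makes cytosolic acetyl-CoA, averaged 1.22 ± 0.23. It was called as varying between embryos (moderated F-test, adjusted p = 0.000973), as were all 7 measured genes of this list and 62.1% of all features. MDM2, the ubiquitin ligase of p53, averaged -1.20 ± 1.19 with values from -2.66 to 1.90. Of 5 nervous system genes 2 were higher and 3 lower (median -0.85), of 2 liver genes 0 were higher and 1 lower (median -0.65, and -0.12 with the looser filter), and of 2 genes on the primitive endoderm list, the basement membrane collagens COL4A1 and COL4A2, 0 passed (median -0.03).

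Profiles of 2 AI embryos correlated at 0.81 to 0.92 (median 0.88, Pearson r over 3711 features measured in every embryo of the 3 groups). Those of an AI and an IVD embryo correlated at 0.75 to 0.88 (median 0.82) and those of an AI and an IVF embryo at 0.68 to 0.89 (median 0.83). All embryos share the reference, which adds to each of these correlations. The SD between embryos had a median of 0.40 log2 units (quartiles 0.29 and 0.56), against 0.19 (0.14 and 0.28) for an embryo mean as judged from its 2 arrays. Embryos differed beyond the disagreement of their arrays in 4035 of 6495 features (62.1%, moderated F-test with dye as a factor, adjusted p under 0.05), and in 1110 with the deposited values. Embryo and amplification reaction cannot be told apart in this count, since each embryo was amplified on its own. Variation was called in 420 of the 590 higher features, in 430 of the 703 lower ones and in 3185 of the 5202 others, with median SDs of 0.38, 0.51 and 0.39.

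**Figure D3:**
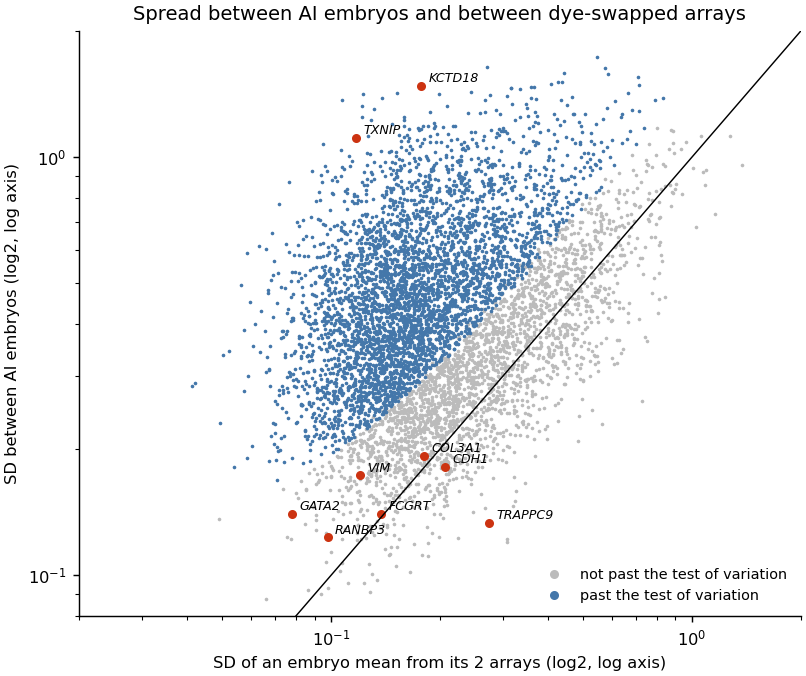
SD between AI embryos (vertical, log2 units, log axis) against the SD of an embryo mean judged from its 2 dye-swapped arrays (horizontal, log axis). Each point is 1 feature, blue where embryos differed beyond their arrays, and the line marks equality. COL3A1 and CDH1 lie near the line and TXNIP and KCTD18 far above it.

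None of the 8 genes with the smallest SDs, among genes past the 2-fold test and measured in all 14 embryos, was called as varying between embryos, and they were chosen for a small SD. CTSK, a collagen-degrading protease, ran from -3.84 to -3.26 (mean -3.59 ± 0.15, 12-fold below the reference), with an SD of 0.17 expected from the arrays. TRAPPC9, of a vesicle tethering complex, averaged -2.04 ± 0.13, NPNT, a basement membrane protein, -1.32 ± 0.16, and TF, the iron carrier transferrin, -1.19 ± 0.16. Each of these 4 genes had a single clone with rows that agreed, for CTSK at -3.61 and -3.57. The other 4 of the 8 smallest SDs were averages over clones that did not agree. RANBP3, a cofactor of nuclear export, had a mean of 2.09 ± 0.12, but 2 rows were at 4.32 and 2 at -0.16 and -0.12. GATA2 was of the same kind. The rows of FCGRT (-3.46 to -1.18) and PYGL (-3.88 to -2.19) differed in size but were all below the reference. Averaging more rows lowers the SD, so the order among constant genes depends in part on the number of rows.

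Among the 10 genes with the largest SDs, KCTD18 ran from -3.49 to 1.37 (median -0.56, SD 1.48), with embryos 8 and H3 lowest and 13 and 14 highest. SULT1E1, which inactivates oestrogens by sulfation, was near the reference in most embryos (median 0.21) and at 4.03 and 2.91 in embryos 5 and 17. PLCB4, a phospholipase of receptor signalling, was at -4.07 to 1.17 (median -2.39), and H3 was the highest. DHX15, a splicing helicase, was above the reference in embryos 17 and 15 (2.29 and 0.98) and between -2.79 and -0.55 in the other 10 measured. TSPAN12, a partner of the Wnt receptor FZD4, was above 0 in embryos 17 and H1 (1.33 and 0.39) and at -0.77 or lower in the other 12. GNPDA2 and KLHDC10 had SDs of 1.42 and 1.37. In these 7 genes every single row had a large SD, the smallest being 1.25 for a row of TSPAN12.

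ARHGAP9 and CLDN1 also had large SDs, of 1.47 each, but rested on clones that did not agree. For ARHGAP9, 2 rows averaged -4.37 and -4.33 over 9 embryos and the other 2 averaged 0.11 and 0.15 over 11 embryos, and the largest SD of a single row was 0.68. An embryo's value then depends on which rows were measured in it. For CLDN1, 2 rows averaged -1.37 and -1.21 over 14 embryos (SDs of 1.79 and 1.35) and the remaining row 1.91 over 7. The SD of MSMO1 was 1.42 over all AI embryos and 0.886 without H1, H3 and H5, where variation was still called (adjusted p = 2.63e-06).

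Embryos H1, H3 and H5 stood at 1 end of the leading principal component, which held 15.9% of the variance between AI embryos (16.4, 28.7 and 11.8, against -17.5 to 6.61 in the other 11). H3 had the lowest median correlation with the rest, 0.84. In limma's test of H-numbered minus other embryos 10 of 6450 features passed (0.155%), 6 higher and 4 lower, and 756 had an unadjusted p under 0.05. The 6 named genes among the 10 are given here.

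TXNIP, an arrestin-like protein that restrains glucose uptake and binds thioredoxin, had log2 ratios of -4.14, -4.29 and -4.24 in H1, H3 and H5. The other 11 embryos ran from -2.22 to -1.24 with a median of -1.60. The groups did not overlap, as in 3.74% of all features, and TXNIP was chosen by this contrast. The difference was -2.53 ± 0.20 (SE, adjusted p = 1.07e-05). All 4 rows averaged between -2.29 and -2.20 over the embryos. TXNIP was the 1 named gene of the 6 whose call held without any single embryo, with a highest adjusted p of 0.000334.

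MSMO1, an enzyme that removes methyl groups in cholesterol synthesis, was at -1.78, -2.19 and -1.66 in H1, H3 and H5, against -0.62 to 1.99 (median 0.83) in the other 11. The difference was -2.77 ± 0.48 (adjusted p = 0.0295), and the call was lost without embryo 6 or without any of H1, H3 and H5. All 7 measured genes of sterol and fatty acid synthesis had lower means in the H-numbered embryos (median difference -0.75, from -2.77 to -0.22), against 44.9% of all features, but only MSMO1 passed. FDPS and NSDHL differed by -1.04 and -0.97 with adjusted p of 0.398 and 0.47. This list was singled out after its values were seen. The 5 cumulus and granulosa genes (median difference -0.20) and the 3 keratins (-0.58) also had lower means in every member.

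CCL26, a chemokine, had -1.01, -0.48 and -0.73 in H1, H3 and H5, against 0.10 to 2.10 (median 1.25) in the others, a difference of -1.94 ± 0.35 (adjusted p = 0.0318). PAAF1, a regulator of proteasome assembly, was at -1.16 and -1.02 in H1 and H5, against -0.13 to 1.00 in 10 others (-1.64 ± 0.25, adjusted p = 0.0215). Rows annotated as ZAP70, a kinase of T cells, were higher, at 3.96, 4.27 and 3.66, against 0.93 to 2.91 in 8 others (2.13 ± 0.34, adjusted p = 0.0295). SH3GLB2 was also higher, at -0.02, 0.71 and -0.56, against -2.0 to -0.86 (1.40 ± 0.25, adjusted p = 0.0314). These genes were chosen by this contrast, so their lack of overlap is no further evidence, and 3.74% of all features did not overlap between H-numbered and other embryos. With 1 embryo left out, 5 of the 6 calls depended on single embryos (adjusted p up to 0.195). That of CCL26 was lost without embryo 3, 7, 8, 16, 17, H1, H3 or H5, that of PAAF1 without H1 or H5, that of ZAP70 without 6, 16, H1, H3 or H5, and that of SH3GLB2 without 6, 7, 16, 17, H1 or H3. The calls of CCL26, PAAF1, ZAP70 and SH3GLB2 were also lost with either dye order alone (adjusted p 0.0532 to 0.133), that of MSMO1 with Cy5 alone (0.0587), those of CCL26, PAAF1 and SH3GLB2 with the deposited values (0.0858 to 0.109), that of SH3GLB2 with quantile normalization (0.0538) and that of CCL26 with rows measured in every embryo (0.0716). The number of features called without 1 embryo was 5 to 15, lowest without H3 (5) and at 6 without H1 or without embryo 16.

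**Figure D4:**
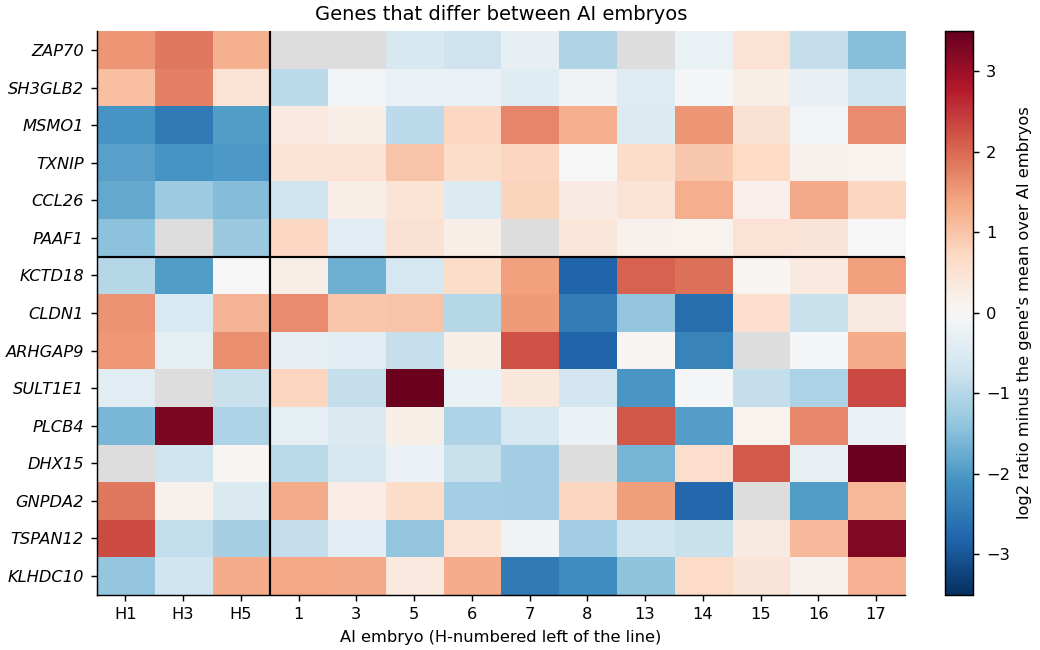
The 6 genes of the H contrast (above the line) and 9 other genes with the largest SDs in each AI embryo. Colour is the log2 ratio of embryo over reference RNA minus the gene's mean over AI embryos, grey cells were not measured, and the 3 H-numbered embryos stand left of the vertical line. TXNIP and MSMO1 are low in all 3.

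Part of the AI profile differed from the other embryo groups, which share the reference. Of 6278 features measured in all groups, 449 were higher in AI than in both IVD and IVF embryos (7.15%) and 569 were lower than in both (9.06%), with limma's adjusted p under 0.05 in each comparison. With the deposited values 120 were above both and 451 below both, so the split depends on the centre. With embryo number as a block 283 were above both and 422 below both. IVD arrays had more rows measured (13754 to 15618) than AI arrays, and their paired arrays agreed less over all rows measured on both (r -0.77 to -0.59). What these array differences add to the comparison with IVD was not tested. Several IVD embryos carry a common number prefix, so they may not all be independent. Dams and collections of the groups are not given, so group and batch cannot be told apart.

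Of the genes high above both, ALAD, an enzyme of haem synthesis, had log2 ratios of 0.99 to 2.15 (median 1.52) in AI, against -1.02 to 0.24 (median -0.20) in IVD and -0.37 to 1.16 (median 0.58) in IVF embryos. No AI embryo overlapped the IVD embryos, as in 2.84% of all features, and the difference was 1.81 ± 0.15 (SE, adjusted p = 5.86e-13), while AI minus IVF was 1.00 ± 0.15 (adjusted p = 1.24e-06) with overlap. HSP90AA1, a chaperone, averaged 0.63 ± 0.56 in AI, against -0.43 ± 0.29 in IVD and -0.88 ± 0.33 in IVF embryos. Its differences were 1.06 and 1.52 (adjusted p = 2.66e-07 and 2.54e-10), and no AI value overlapped those of IVF, as in 0.542% of all features. Both genes were chosen for these differences. NUDC, a partner of dynein, averaged 0.22 ± 0.56 in AI, against -1.51 ± 0.36 in IVD and -1.01 ± 0.60 in IVF embryos. Its AI values ran from -0.72 to 0.76 and its mean did not pass the test against the reference (adjusted p = 0.167). CCL26, MYO1D, CPNE3, MLXIP and IFI35 were the others, with AI means of 0.78, 0.73, 1.70, 0.48 and 0.40 and AI minus IVD of 1.73, 1.16, 0.97, 0.90 and 0.63. The difference from IVD was lost with the deposited values for CPNE3, MLXIP and IFI35 (adjusted p = 0.0624, 0.0545 and 0.217), with Cy3 arrays alone for CPNE3 (0.309) and IFI35 (0.31), with the replicate block for both (0.0796 and 0.0791) and without the H-numbered embryos for IFI35 (0.0595).

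Of the genes below both, OCIAD2, an endosomal and mitochondrial protein, was at -5.38 to -2.01 (median -4.66) in AI, against -2.15 to 0.58 (median -0.44) in IVD and -4.06 to -0.11 (median -1.91) in IVF embryos. Embryos 16 and H1 were the 2 AI embryos that reached the IVD range, and AI minus IVD was -3.40 ± 0.40 and AI minus IVF -2.21 ± 0.39 (adjusted p = 3.48e-09 and 2.26e-05). KCNK1, a potassium channel, averaged -3.73 ± 0.72 in AI, against -2.0 ± 0.73 in IVD and -2.13 ± 0.69 in IVF embryos. HMOX1, which breaks haem down, averaged -1.93 ± 0.71 in AI, against -0.62 ± 0.73 in IVD and -0.02 ± 0.94 in IVF embryos. FZD4, a Wnt receptor, averaged -0.50 ± 1.30 in AI (n = 13), against 1.58 ± 0.58 in IVD and 1.36 ± 0.89 in IVF embryos. Its AI mean did not pass against the reference (adjusted p = 0.163) and was -0.26 without embryo H3, -0.25 without all H-numbered embryos and -0.09 with Cy3 alone. AI minus IVD was -1.73 for HSPB8 and -1.0 for FILIP1L. TOMM34 and EHBP1L1 were measured in 7 AI embryos only, and EHBP1L1 had a mean of 1.05 with Cy3-labelled and of -1.87 with Cy5-labelled embryo RNA, and its differences from IVD and IVF were lost with Cy3 alone (adjusted p = 0.111 and 0.0655). That of TOMM34 from IVD was lost with the replicate block (0.247).

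**Figure D5:**
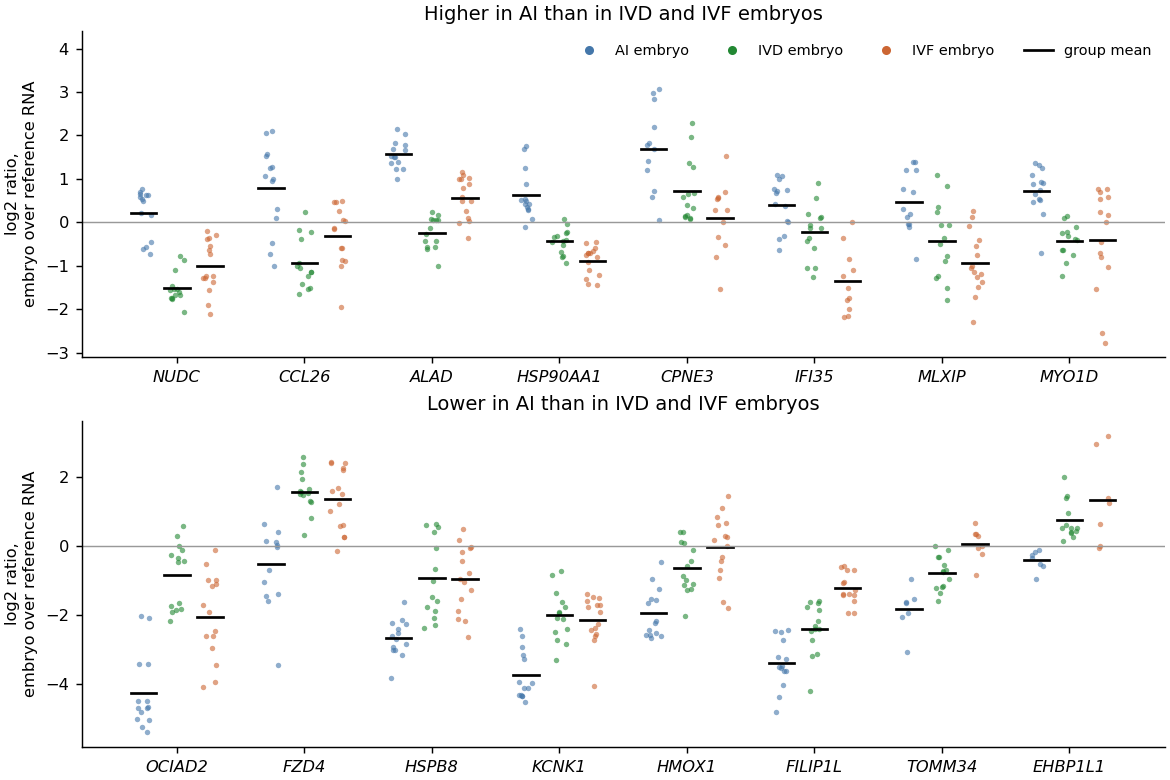
Genes higher (top) and lower (bottom) in AI than in IVD and IVF embryos, with the log2 ratio of embryo over reference RNA on the vertical axes. Points are embryos, bars are group means, and AI, IVD and IVF stand from left to right for each gene. ALAD in AI lies between 0.99 and 2.15, above all IVD embryos.

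The spread of whole profiles was compared in a test added after the data were seen, as the root mean square distance of an embryo from its group mean over 3711 features measured in every embryo. It was 0.45 ± 0.05 in AI, against 0.39 ± 0.06 in IVD and 0.44 ± 0.13 in IVF embryos (SD). AI exceeded IVD by 0.05 (two-sided permutation test with 100000 permutations, p = 0.022, adjusted over 2 comparisons 0.044) and IVF by 0.0026 (p = 0.943, adjusted 0.943). The test treats embryos as independent, which may not hold for IVD embryos with a common number prefix. The distance also includes array noise, and paired arrays agreed less in IVD (r -0.77 to -0.59 before turning) than in AI (-0.91 to -0.82). These r values were taken over all rows measured on both arrays and not over the 3711 features. What either adds to the difference was not tested.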

How the data were processed

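The values are log2 ratios from 2-colour cDNA arrays, deposited by the authors in 1 table of 16416 rows and 86 arrays. How the authors scanned and normalized the arrays is not stated in the labels. In AI arrays 27.0% of cells held no value, and 16 cells of the table at a common ceiling of 16.61 were set to missing. No spot intensities were used, so signal over background is unknown, and the number of arrays limits the precision.

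The median of the 5558 rows present on all arrays was subtracted from every array. The sign was turned where Cy3 labelled the embryo, and an embryo's 2 arrays were averaged. Rows with both arrays in at least 7 AI embryos were kept (11090 rows). Rows with the same single gene symbol were averaged, so that 535 genes rest on several clones, and in 10 of them single rows lay beyond a log2 ratio of 1 in opposite directions. Symbols come from GEO's platform annotation, where 11196 rows have 1 symbol, 190 several and 5030 none. RefSeq's gene table for ARS-UCD2.0 held 11182 of those with 1 symbol. Coordinates and sequences were not used here.

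Means were tested against 0, and beyond a log2 ratio of 1, with limma 3.58.1 in R 4.3.3 (eBayes and treat, two-sided, Benjamini-Hochberg over all features, threshold 0.05). Variation between embryos was tested with a moderated F-test on single arrays with dye as a factor. H-numbered and other embryos, and AI against IVD and IVF, were compared with limma on embryo means, the second over 6278 features with at least 7 embryos in every group. Gene symbols such as CLDN1 can have another AI mean there, since other rows were kept. The test against 0, the F-test and the difference between groups (simulated for the H contrast) were tested on simulated data, and the 2-fold test was not. The F-test first missed its recovery target. The target was then limited to features whose arrays agreed well, because it found few of the simulated differences where arrays disagreed, so variation is under-called in such features. Small H differences were also rarely recovered. Figures used matplotlib 3.10.9.

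The genes named are the 15 highest and 15 lowest means past both tests with the same sign in every embryo and at least 12 embryos, up to 4 genes per list, the 8 smallest SDs among genes past the 2-fold test and measured in all 14 embryos, the 10 largest SDs, up to 5 genes each way of the H contrast and 8 each way against IVD and IVF. Other list members named in the text were picked from the lists after their values were seen. The members and the lists were chosen with earlier results of these data known. The shares of features without overlap and the correlations between groups were added after the data were seen. Alternatives were other centring, quantile normalization, 1 dye order, other filters, shared spread, a replicate block, and leaving out embryos.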

Additional observations from a re-analysis of the deposited data

Results flagged for a closer look

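Only the genes picked by the rules of choice given above were searched here, some of them picked for their differences from IVD and IVF embryos. In 9 of these genes the mean ratio to the reference was past the test in AI embryos and in another group with opposite signs. The difference between the groups itself also passed (limma, adjusted p 0.00793 or lower in each case below). The share of such genes among all features was not computed. The values of AI come from the fit over all 3 groups, and no cause was tested. Against 0, with AI embryos fitted alone, the AI means of MLXIP, IFI35 and CCL26 did not pass with the deposited values (adjusted p = 0.276, 0.456 and 0.051). Those of MLXIP, IFI35 and CYP11A1 did not pass without the H-numbered embryos (0.168, 0.0694 and 0.0591), those of MLXIP and CYP11A1 with Cy5 alone (0.0747 and 0.261), that of IFI35 with Cy3 alone (0.0765) and that of CYP11A1 under another array centre (0.0654). CLDN1 averaged -0.80 in that fit, which kept other rows than the fit over all groups, and this call was lost under 4 alternatives. With rows measured in every embryo its mean was -1.29, the value of the fit over all groups, and passed (limma, adjusted p = 0.00432).

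Against IVD, ALAD averaged 1.56 in AI and -0.24 in IVD embryos, a difference of 1.81. CCL26 averaged 0.78 and -0.94 (difference 1.73), HSP90AA1 0.63 and -0.43 (1.06) and MLXIP 0.48 and -0.42 (0.90), AI given before IVD. PSPH, the last enzyme of serine synthesis, averaged -2.61 in AI and 1.04 in IVD embryos (difference -3.65), and CLDN1 -1.29 in AI and 1.31 in IVD embryos (-2.60). CYP11A1, which starts steroid synthesis, averaged -0.19 in AI and 0.22 in IVD embryos (-0.40).

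Against IVF, HSP90AA1 averaged 0.63 in AI and -0.88 in IVF embryos (difference 1.52), IFI35 0.40 in AI and -1.36 in IVF embryos (1.75), and MLXIP 0.48 in AI and -0.93 in IVF embryos (1.41). SULT1E1 averaged 0.61 in AI and -0.65 in IVF embryos (1.25), with values of 4.03 and 2.91 in AI embryos 5 and 17. Its AI mean over all AI embryos did not pass against the reference when they were fitted alone (limma, adjusted p = 0.137), and it was 0.32 without embryo 5. CYP11A1 averaged -0.19 in AI and 0.22 in IVF embryos (-0.41).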

How the results depend on the processing

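With the values as deposited, 1524 features were higher (357 beyond 2-fold), embryos differed in 1110 and AI was above both other groups in 120. The cause was not tested. With rows measured in every embryo, AI was above both in 282 and below both in 368 of 3533 features (7.98% and 10.4%), embryos differed in 3219 of 4311 (74.7%) and the H contrast called 4. The H contrast called 3 features with the embryo in Cy3 only and 1 with the embryo in Cy5 only. Without each AI embryo in turn, the calls were 2267 to 2332 higher and 2595 to 2656 lower, 562 to 586 and 676 to 706 beyond 2-fold, 3839 to 4084 for variation and, chosen after seeing the data, 5 to 15 for the H contrast. With embryo number as a replicate block, 283 features were above both groups and 422 below both. Whole profiles of embryos of equal number showed no clear common deviation (r -0.13 to 0.07 over 5 numbers shared by AI and IVD, -0.09 to 0.13 over 7 shared by AI and IVF). So few pairs cannot tell whether equal numbers mark a shared collection. Signs turned for NUDC (-0.043 as deposited, -0.031 in Cy3 only), PAAF1 (-0.026 as deposited) and EHBP1L1 (1.05 in Cy3 only), and the cause was not tested. The other counts stayed within 1.5 times under the alternatives run. For CLDN1, of which 1 row was measured in 7 embryos, the minimum kept, leaving out 1 embryo ended the call against 0 in 6 cases and moved the mean by over 1.5 times in 5 (embryos 1, 3, 7, 8, 13, 14, 15, 16, 17, H1 and H5, means -1.43 to -0.60, adjusted p up to 0.105), and the missing intensities leave the depth of dim spots unknown.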
